A study of Homo sapiens with 6 samples.

Results

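Cilium transport and axoneme genes were taken as all genes whose annotated symbol is IFT, BBS, CFAP or DNAH followed by a number, with antisense RNAs, divergent transcripts and pseudogenes left out. Of 14884 named genes on the arrays, 61 met this rule. They were 16 IFT genes, 8 BBS genes and 37 CFAP genes, among them CFAP20DC, whose symbol carries a suffix. The DNAH family had 0 named members here, so its 13 genes in the RefSeq table were not analysed here. RNA of U-2 OS cells, an established line from a human osteosarcoma, was hybridised to 6 Affymetrix arrays. On 3 arrays the cells carried a retroviral vector for S22A-progerin, and on the other 3 a vector for wt-progerin. Progerin is the truncated, permanently farnesylated lamin A of Hutchinson-Gilford progeria, and S22A replaces a serine that is phosphorylated at mitosis with alanine. All cells had been infected, selected with puromycin at 5 µg/ml for 3 days and collected 4 days after infection. Both groups carry progerin and no progerin-free cells are included, so no value tells which group departs from the parental line.

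Cilia are microtubule-based projections. Most non-dividing cells can grow 1 primary cilium, which lacks motility, receives signals such as Hedgehog and is taken down before mitosis. Intraflagellar transport moves cargo along the cilium in trains of IFT-A and IFT-B particles. Kinesin-2 pulls the trains outward and dynein-2 pulls them back. The BBSome, built from BBS proteins, links membrane receptors to these trains for export. CFAP proteins, for cilia and flagella associated proteins, are a mixed set named mostly after homologues in Chlamydomonas. Many sit in the axoneme of motile cilia and sperm tails, as do the DNAH dynein heavy chains.

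The arrays correlated at 0.994 to 0.996 within S22A-progerin and at 0.996 to 0.997 within wt-progerin, across genes, which are not independent replicates. Between the groups the correlation was 0.983 to 0.985. S22A-progerin replicate 3 stood apart from its group on the second principal component (-15.5, against 6.51 and 9.29), and values without it are among those given with single arrays left out. LMNA, which encodes lamin A and progerin, averaged 8.29 ± 0.024 in S22A-progerin and 8.14 ± 0.036 in wt-progerin (SD, n = 3 each). It did not pass (limma adjusted p = 0.0796), but LMNA passed as higher with the arrays quantile normalized again (0.0356) and with the dimmest 25% (0.0466) or 50% (0.0237) of genes left out. Its probe set does not check the S22A change. Of the mesenchymal markers, VIM averaged 10.83 in S22A-progerin and 10.89 in wt-progerin, and FN1 12.07 and 12.50. RUNX2, a bone lineage factor, averaged 8.03 and 8.77 in the same order. Of the 6 measured mesenchymal and bone markers, RUNX2, FN1 and THY1 (-0.32) fell, S100A4 (0.38) rose, and VIM and TWIST1 (0.04) did not pass. S100A4 lost its call without any 1 of 4 arrays (adjusted p up to 0.0859). SPARC and the type I collagen genes were not analysed here. Of 7 epithelial markers KRT18 (0.51) rose and 6 did not pass. The 4 measured leukocyte markers had 0 that passed. All values are log2 RMA signals of probe sets, and every difference subtracts the wt-progerin mean from the S22A-progerin mean on that scale. A gene passed at a limma p-value under 0.05 after Benjamini-Hochberg adjustment over all 14884 genes, and "rose" or "fell" is used only of genes that passed. The study's design text calls the replicates of each group independent without saying how they were made separate, so a p-value here reflects only how far these 6 arrays scatter. In such bulk samples, fewer cells with a transcript and less of it per cell cannot be told apart.

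The IFT genes were mostly lower in S22A-progerin cells, while the BBS and CFAP genes that passed went to both sides. Of 16 IFT genes, 9 fell and 1 rose, against a background of 14.6% of all genes lower and 10.8% higher. Their median difference was -0.25, beside -0.0037 over all genes. The arrays of the groups did not overlap in 11 of the 16, with S22A-progerin below in 10 and above in 1. Over all genes this held for 42.1%, with 23.6% below and 18.5% above. Of 8 BBS genes, 2 fell and 2 rose (median 0.038), and of 37 CFAP genes, 2 fell and 4 rose (median 0.0018). The family with the most members thus had 16.2% that passed in either direction, below the 25.4% of all genes. The differences were small, with CFAP418 at -0.71 and BBS7 at 0.69 marking the ends of the range. Mitosis genes fell in the same comparison (15 of 15 measured, median -0.74), and their part in the IFT values was not tested.

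**Figure D1:**
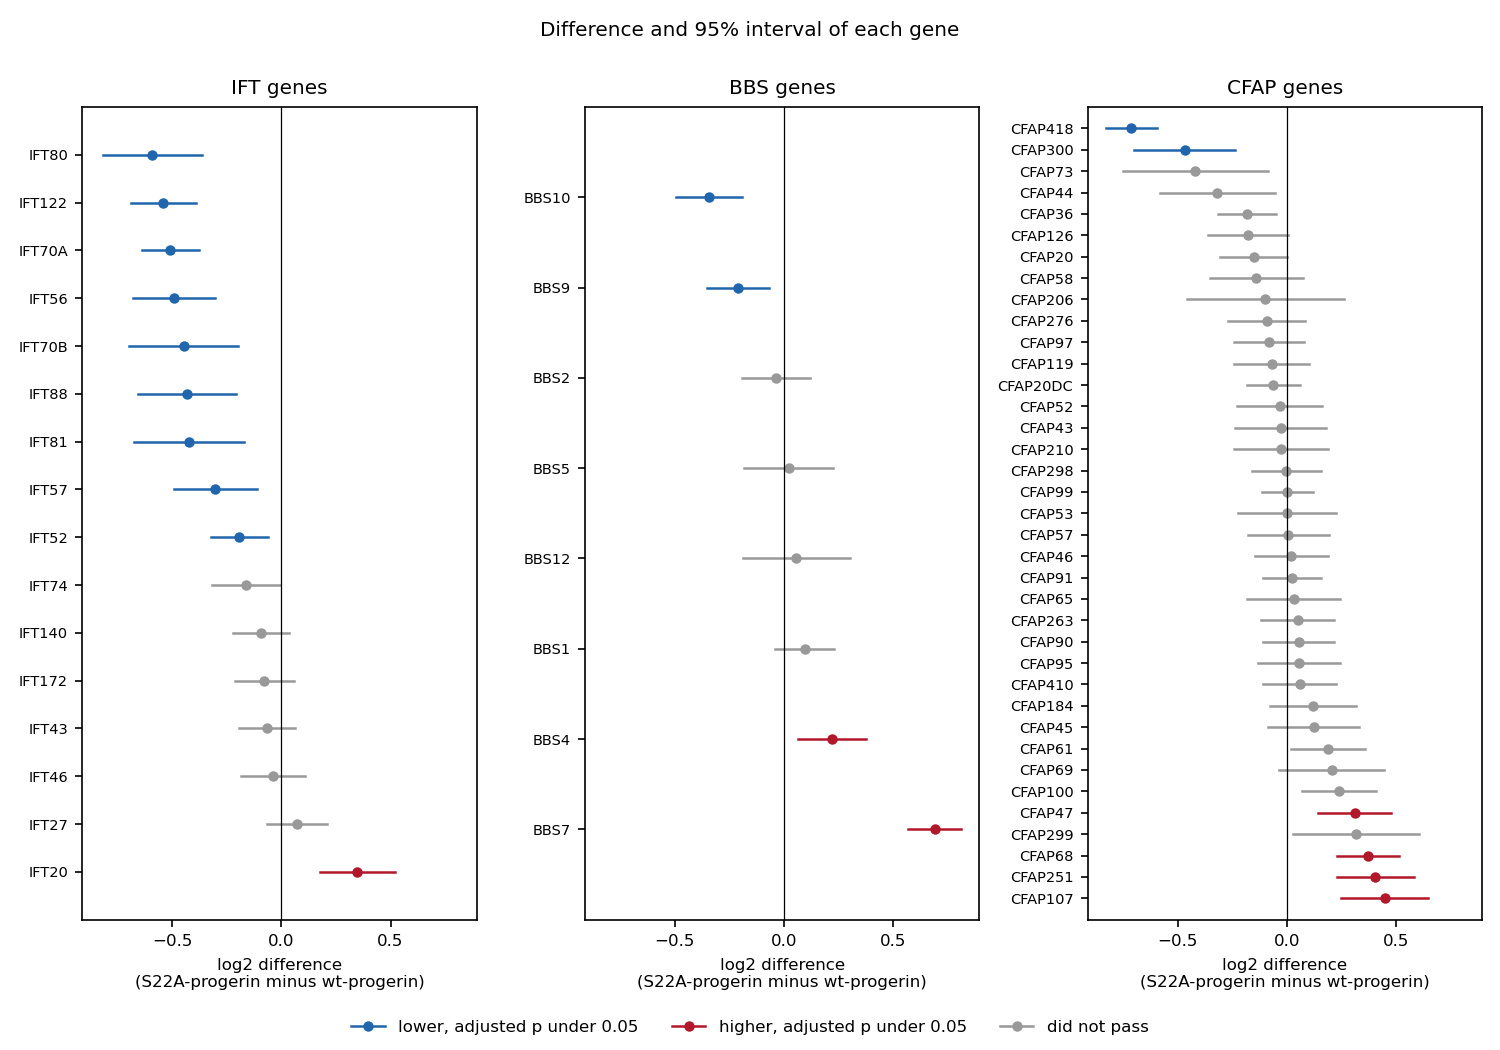
Difference in log2 signal, S22A-progerin minus wt-progerin, for each of the 16 IFT, 8 BBS and 37 CFAP genes, with bars for the 95% interval from limma (n = 3 arrays per group). Blue marks genes that were lower and red genes that were higher at an adjusted p under 0.05, and grey those that did not pass. Most IFT genes lie left of 0, with IFT20 alone in red, whereas most CFAP genes lie close to 0.

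IFT122, a core subunit of the IFT-A particle that carries out return transport, was read at 7.06, 6.92 and 7.02 in S22A-progerin, against 7.53, 7.61 and 7.48 in wt-progerin. Every S22A-progerin array lay below every wt-progerin array. The difference was -0.54 (SE 0.064, 95% interval -0.69 to -0.39), a 1.45-fold fall at limma adjusted p = 0.00109. The other IFT-A members of the rule did not pass. IFT140, the largest subunit, averaged 7.50 ± 0.045 in S22A-progerin and 7.60 ± 0.043 in wt-progerin (SD, n = 3 each), and the groups overlapped. IFT43, a small subunit, averaged 7.80 ± 0.0069 and 7.87 ± 0.062 in the same order, also with overlap. IFT-A subunits whose symbols lack the prefix also went to both sides. TTC21B (-0.45, SE 0.077) fell, WDR35 (0.27, SE 0.067) rose and WDR19 (0.03, SE 0.054) did not pass. Of all 6 IFT-A genes, 2 fell and 1 rose. WDR35 missed the threshold when any 1 of 5 arrays was left out, at adjusted p up to 0.0706, and with replicate number as a block (0.0501).

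The IFT-B particle, which carries cargo outward, held most of the falls. IFT80, a peripheral subunit mutated in Jeune thoracic dystrophy, had the largest IFT difference. It was read at 7.80, 7.62 and 7.95 in S22A-progerin, against 8.27, 8.41 and 8.46 in wt-progerin. The lowest wt-progerin array lay above the highest S22A-progerin array. The difference was -0.59 (SE 0.096, 95% interval -0.82 to -0.36), 1.51-fold, at limma adjusted p = 0.0045.

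IFT70A and IFT70B are tetratricopeptide repeat proteins of the IFT-B core. They are encoded by near-identical genes that neighbour each other, so their probe sets may share signal and the 2 falls may not be separate observations. IFT70A was read at 6.15, 6.02 and 6.08 in S22A-progerin and at 6.59, 6.58 and 6.60 in wt-progerin, a difference of -0.51 (SE 0.056, adjusted p = 0.000791 by limma). IFT70B was read at 5.57, 5.72 and 5.38 in S22A-progerin, against 5.92, 6.16 and 5.93 in wt-progerin, a difference of -0.45 (SE 0.106). In both genes the arrays of the groups did not overlap. A second IFT70A probe set, averaging 6.19 in S22A-progerin and 6.33 in wt-progerin against 6.08 and 6.59 for the first, did not pass. It read 6.06, 6.27 and 6.23 in S22A-progerin, against 6.61, 6.50 and 5.88 in wt-progerin, so wt-progerin replicate 3 lay below the S22A-progerin arrays there (difference -0.14, limma adjusted p = 0.638 over all probe sets). The mean of both probe sets still passed for IFT70A, at -0.33 and adjusted p = 0.0462. IFT70B (adjusted p = 0.0202) missed the threshold without S22A-progerin replicate 1 (0.0542) and without wt-progerin replicate 2 (0.0607).

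IFT56, another repeat protein of the IFT-B core, averaged 7.49 ± 0.070 in S22A-progerin and 7.98 ± 0.131 in wt-progerin (SD, n = 3 each), a difference of -0.49 (SE 0.080). IFT88, the subunit altered in the Oak Ridge polycystic kidney mouse, was read at 5.99, 5.83 and 6.08 in S22A-progerin and at 6.26, 6.55 and 6.39 in wt-progerin. Its difference was -0.43 (SE 0.095). Both genes fell, at limma adjusted p = 0.00444 and 0.0153, with no overlap between the groups. IFT81, which binds tubulin together with IFT74, fell by 0.42 on the log2 scale (SE 0.107), with means of 6.12 ± 0.189 in S22A-progerin and 6.54 ± 0.116 in wt-progerin (SD, n = 3 each). IFT74 itself averaged 7.72 ± 0.079 in S22A-progerin and 7.89 ± 0.074 in wt-progerin and did not pass, at limma adjusted p = 0.127, though the groups did not overlap. The pair was thus parted by the threshold and not by direction.

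IFT57 and IFT52, subunits of the peripheral and the core part of IFT-B, had the smallest falls. IFT57 averaged 7.69 ± 0.074 in S22A-progerin and 7.99 ± 0.131 in wt-progerin, and IFT52 9.16 ± 0.055 and 9.35 ± 0.036 in the same order (SD, n = 3 each). These calls stood near the threshold, at limma adjusted p = 0.0319 for IFT57 and 0.0416 for IFT52. IFT52 missed it when any 1 of the 6 arrays was left out (adjusted p 0.0591 to 0.129), with a replicate block (0.106) and with the arrays quantile normalized again (0.139). IFT57 missed it without 1 of 4 arrays, S22A-progerin replicates 2 and 3 and wt-progerin replicates 1 and 2 (0.0726 to 0.0955), and with a replicate block (0.0642). IFT81 (adjusted p = 0.0259) missed it without S22A-progerin replicate 1 or wt-progerin replicates 1 or 2 (0.0505 to 0.0821) and with a replicate block (0.0594). Without wt-progerin replicate 2 as few as 5 IFT genes fell.

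IFT20 went the other way. It is the IFT-B subunit that also sits at the Golgi and takes part in moving membrane proteins from there to the cilium. Its values were 8.82, 8.73 and 8.88 in S22A-progerin, against 8.55, 8.35 and 8.49 in wt-progerin. All S22A-progerin arrays lay above all wt-progerin arrays. The difference of means was 0.35 (SE 0.073, 95% interval 0.17 to 0.52), 1.27-fold, at limma adjusted p = 0.013. The remaining IFT-B genes overlapped between the groups and did not pass. They were IFT46 (-0.04, SE 0.062), a core subunit, IFT172 (-0.08, SE 0.057), a large subunit at the tip turnaround, and IFT27 (0.07, SE 0.059), a small GTPase that works with the BBSome. CLUAP1 (-0.09) and TRAF3IP1 (-0.11), IFT-B subunits without the prefix, did not pass either. Over the 15 measured IFT-B genes, 8 fell and 1 rose. IFT22 and IFT25 were not analysed here.

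**Figure D2:**
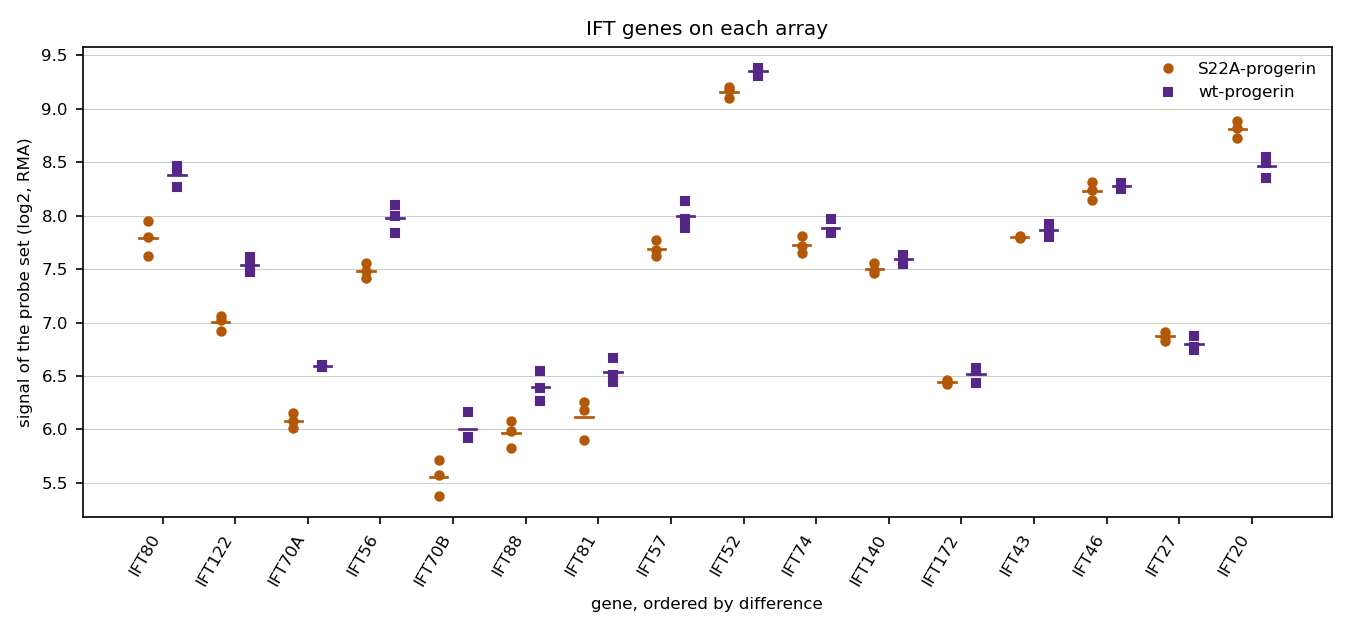
Log2 RMA signal of the 16 IFT genes on each of the 6 arrays, S22A-progerin (circles) left of wt-progerin (squares), with a bar at each mean (n = 3). Genes run from the most negative difference to the most positive. For IFT80 to IFT74 all circles lie below all squares, and for IFT20 all circles lie above all squares.

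Promoter sequence was examined because RFX factors, which bind X-box motifs, are known regulators of cilium genes. RefSeq windows of 300 bases (250 before to 50 after the annotated start, GRCh38.p14) matched 57 of the 61 genes. The core letters GTTGCC of an RFX site, searched on both strands, stood in 29 of these 57 windows (50.9%), against 14.6% of the 27305 genes in the table. By family it stood in 8 of 16 IFT, 3 of 7 BBS and 18 of 34 CFAP windows. The palindromic X-box, a pair of such core sites of looser sequence facing each other over 14 bases, which can overlap GTTGCC, stood in 8 of 57 windows, against 1.79% of all genes. Of these 8 genes, 3 fell (IFT56, IFT57 and IFT70A), 1 rose (CFAP251) and 4 did not pass (CFAP100, CFAP20DC, CFAP263 and CFAP45). GTTGCC was present in 6 of 10 windows of genes that fell, 2 of 7 of those that rose and 21 of 40 of those that did not pass. A cell cycle homology element, TTTGAA, stood in 11 of 57 windows (19.3%), close to the 18.2% of all genes. Of these 11 genes, 4 fell (IFT56, IFT70A, IFT70B and IFT80), 1 rose (CFAP68) and 6 CFAP genes did not pass. Without regard to motifs, 9 of 16 IFT genes and 2 of 37 CFAP genes fell. No window was matched for BBS9, CFAP418 and CFAP300, which fell, or for CFAP73, which did not pass. The windows of genes that fell were thus those of 9 IFT genes and BBS10, and of no CFAP gene. Counts by direction therefore also compare families. The 27305 genes include noncoding ones such as BBS7-DT, while all 57 members with a window code for proteins, so the shares over all genes come from an unlike set. All motif matches are descriptions of letters in a window and do not show binding.

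The windows shown are those of IFT122, IFT80, IFT70A and IFT20, which lead the description, of IFT70B, the paralogue of IFT70A, and of CFAP251, the CFAP gene that rose and carries the palindrome. Letters run 5′ to 3′ on the gene's strand, and capitals mark GTTGCC on either strand or the palindrome. IFT70A holds 3 copies of GTTGCC close together, the last overlapping the palindrome, where its paralogue IFT70B holds 1. IFT122 holds 1, and IFT80 and IFT20 hold none.
IFT122 promoter (GRCh38.p14, chr3:129439974-129440273, plus strand): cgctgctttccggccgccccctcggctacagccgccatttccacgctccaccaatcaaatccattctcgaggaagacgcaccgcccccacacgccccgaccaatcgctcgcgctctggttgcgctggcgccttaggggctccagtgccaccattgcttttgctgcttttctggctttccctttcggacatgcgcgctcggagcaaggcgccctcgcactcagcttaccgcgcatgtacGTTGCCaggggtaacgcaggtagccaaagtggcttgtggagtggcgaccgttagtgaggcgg
IFT80 promoter (GRCh38.p14, chr3:160399176-160399475, minus strand): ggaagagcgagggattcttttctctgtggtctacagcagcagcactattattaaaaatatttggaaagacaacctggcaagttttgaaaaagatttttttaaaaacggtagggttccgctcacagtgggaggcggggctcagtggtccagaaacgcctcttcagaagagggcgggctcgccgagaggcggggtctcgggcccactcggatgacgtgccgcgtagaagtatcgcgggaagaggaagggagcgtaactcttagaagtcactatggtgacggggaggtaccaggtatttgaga
IFT70A promoter (GRCh38.p14, chr2:177618693-177618992, minus strand): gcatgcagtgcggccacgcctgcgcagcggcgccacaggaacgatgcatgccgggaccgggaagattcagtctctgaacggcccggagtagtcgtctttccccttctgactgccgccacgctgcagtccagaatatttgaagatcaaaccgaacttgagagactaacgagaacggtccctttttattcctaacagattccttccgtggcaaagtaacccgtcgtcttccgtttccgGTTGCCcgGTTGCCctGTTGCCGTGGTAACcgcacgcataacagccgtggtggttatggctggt
IFT70B promoter (GRCh38.p14, chr2:177552747-177553046, minus strand): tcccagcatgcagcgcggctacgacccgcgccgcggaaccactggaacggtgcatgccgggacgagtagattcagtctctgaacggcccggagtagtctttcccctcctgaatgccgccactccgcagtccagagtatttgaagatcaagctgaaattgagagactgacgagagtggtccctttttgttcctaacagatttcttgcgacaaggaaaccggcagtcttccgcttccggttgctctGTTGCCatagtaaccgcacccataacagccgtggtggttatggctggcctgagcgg
IFT20 promoter (GRCh38.p14, chr17:28335423-28335722, minus strand): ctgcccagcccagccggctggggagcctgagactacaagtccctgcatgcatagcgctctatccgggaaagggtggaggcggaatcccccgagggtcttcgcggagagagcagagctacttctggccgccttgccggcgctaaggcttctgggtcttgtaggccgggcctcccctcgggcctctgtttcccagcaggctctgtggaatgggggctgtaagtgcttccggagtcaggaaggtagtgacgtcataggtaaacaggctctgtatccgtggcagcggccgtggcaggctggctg
CFAP251 promoter (GRCh38.p14, chr12:121918342-121918641, plus strand): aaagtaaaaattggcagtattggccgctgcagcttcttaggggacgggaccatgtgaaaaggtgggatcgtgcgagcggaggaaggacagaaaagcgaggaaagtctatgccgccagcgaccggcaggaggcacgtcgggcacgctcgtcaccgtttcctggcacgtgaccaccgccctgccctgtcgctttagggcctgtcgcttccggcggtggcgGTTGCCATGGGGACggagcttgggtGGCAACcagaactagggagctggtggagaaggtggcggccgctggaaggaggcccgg

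Position was described for all members through genes on the opposite strand that start within 1000 bases upstream. Of 26 members with such a head-to-head gene, 7 had 1 that was tested. IFT80 starts next to SMC4, which encodes a condensin subunit. SMC4 averaged 9.75 in S22A-progerin and 10.31 in wt-progerin, a fall of 1.48-fold (-0.56, SE 0.054, limma adjusted p = 0.000447), beside -0.59 for IFT80. A readthrough transcript of IFT80 and the neighbouring TRIM59 is annotated, so the IFT80 probe set may read both. TRIM59 fell (-0.34), though not when any 1 of 4 arrays was left out (adjusted p up to 0.0683). IFT122 starts next to MBD4, a DNA glycosylase gene, which fell as well (-0.27, SE 0.064). MBD4 missed the threshold without wt-progerin replicate 2 (0.0641) or 3 (0.0769), with a replicate block (0.0588) and with the arrays quantile normalized again (0.0541). IFT74 starts next to PLAA (-0.18), which passed while IFT74 did not. The call of PLAA was lost when any 1 of the 6 arrays was left out, at adjusted p up to 0.116. It was also lost with a replicate block (0.119) and with the arrays quantile normalized again (0.13). Among CFAP genes, CFAP276 (-0.09) and CFAP52 (-0.03) did not pass, while their partners ELAPOR1 (0.29) rose and STX8 (-0.22) fell. CFAP184 and CFAP95 did not pass, and neither did their partners TADA2B (0.08) and CFAP95-DT (0.03). Over all genes 25.4% passed. STX8 missed the threshold without wt-progerin replicate 1 (0.0591) or 2 (0.0637), with a replicate block (0.0624) and with the arrays quantile normalized again (0.057).

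BBS7 had the largest rise of all 61 genes. It encodes a core subunit of the BBSome. Its values were 10.59, 10.60 and 10.52 in S22A-progerin, against 9.87, 9.86 and 9.90 in wt-progerin, so the groups were far apart. The difference was 0.69 (SE 0.052, 95% interval 0.57 to 0.81), 1.61-fold, at limma adjusted p = 0.000163. BBS7 also had the brightest probe set of its family. The gene next to it, CCNA2, which encodes the S phase and mitosis cyclin A2, was opposite in direction (-0.64, SE 0.071). CCNA2 was among 25 tested neighbours of 16 members that passed. Of the other neighbours, SMC4, MBD4, IFT70A, IFT70B, AGPS, MYBL2 and TMEM97 fell, HHLA2 and SGK2 rose, and the rest did not pass.

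BBS4, a BBSome subunit that binds the centriolar satellite protein PCM1, was read at 8.68, 8.51 and 8.49 in S22A-progerin and at 8.34, 8.34 and 8.34 in wt-progerin. It rose by a difference of 0.22 (SE 0.066), at limma adjusted p = 0.0485. BBS9, also a BBSome subunit, was read at 7.13, 7.14 and 7.08 in S22A-progerin, against 7.39, 7.36 and 7.24 in wt-progerin. It fell (-0.21, SE 0.060), at limma adjusted p = 0.0403. Both stood at the edge of the threshold although the groups did not overlap. BBS4 missed it when 1 of 5 arrays was left out (S22A-progerin replicates 1 or 2, or any wt-progerin replicate, 0.0724 to 0.123), with a replicate block (0.0899) and with every probe set tested (0.0506). BBS9 missed it without any 1 of 5 arrays, all but wt-progerin replicate 3 (0.0733 to 0.133), with a replicate block (0.0753) and with array weights (0.0538).

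BBS10, a chaperonin-like protein needed to assemble the BBSome, fell. It was read at 8.44, 8.29 and 8.29 in S22A-progerin, against 8.64, 8.68 and 8.74 in wt-progerin (-0.34, SE 0.065, limma adjusted p = 0.00811). BBS12 (0.06, SE 0.104), of the same assembly complex and the dimmest BBS probe set, did not pass. BBS1 (0.09), BBS2 (-0.04) and BBS5 (0.02), further BBSome subunits, overlapped between the groups and did not pass. Subunits and partners without the prefix did not pass either. These were TTC8 (-0.01), BBIP1 (-0.30), ARL6 (-0.15), LZTFL1 (0.08) and the chaperonin-like MKKS (0.07). For BBIP1 and ARL6 the groups did not overlap, with S22A-progerin below. BBIP1 (limma adjusted p = 0.0625) passed as lower with the dimmest 25% (0.0341) or 50% (0.0172) of genes left out. It also passed with a trend and robust prior (0.0170) and without S22A-progerin replicate 2 (0.0495). Of the 10 BBSome subunits and partners, 2 rose, 1 fell and 7 did not pass, or 30% that passed, beside 25.4% of all genes. The 10 count ARL6 and LZTFL1, which are partners and not subunits, and all that passed were subunits. The fall is that of BBS9, whose call is borderline as given above.

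**Figure D3:**
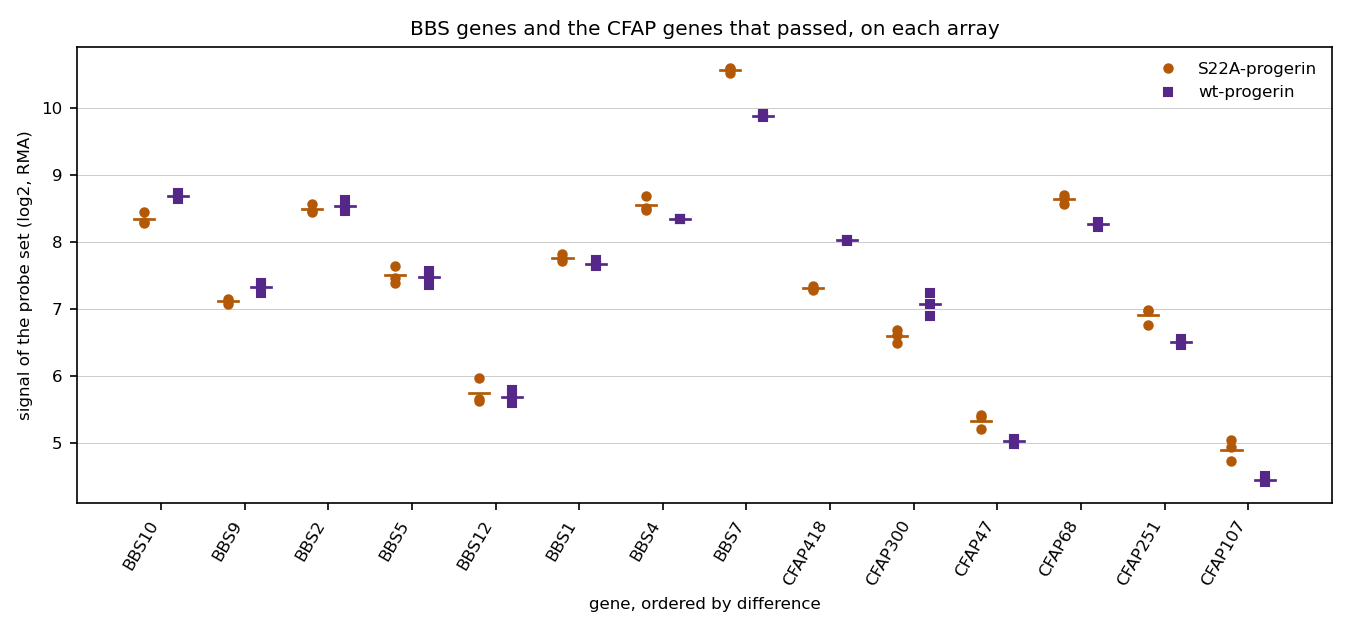
Log2 RMA signal on each array of the 8 BBS genes and of the 6 CFAP genes that passed, S22A-progerin (circles) left of wt-progerin (squares), with a bar at each mean (n = 3). BBS7 and CFAP418 show the widest gaps, in opposite directions, and the circles of BBS2, BBS5, BBS12 and BBS1 overlap the squares.

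Among CFAP genes the largest fall was in CFAP418, a gene of inherited retinal dystrophy whose protein acts in photoreceptor outer segments. Its values were 7.35, 7.30 and 7.29 in S22A-progerin, against 8.02, 8.03 and 8.03 in wt-progerin. The spread within each group was far smaller than the difference of -0.71 (SE 0.049, 95% interval -0.83 to -0.60), 1.64-fold, at limma adjusted p = 0.000121. CFAP300, needed to bring dynein arms into motile cilia, was read at 6.61, 6.50 and 6.69 in S22A-progerin and at 7.24, 7.08 and 6.89 in wt-progerin. It fell (-0.47, SE 0.099, limma adjusted p = 0.013), with no overlap.

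The 4 CFAP genes that rose belong to the axoneme or sperm tail. CFAP107 and CFAP68 encode proteins inside the doublet microtubules. CFAP107 averaged 4.91 ± 0.155 in S22A-progerin and 4.46 ± 0.046 in wt-progerin (SD, n = 3 each), a difference of 0.45 (SE 0.085) at low signal. CFAP68, with a brighter probe set, averaged 8.64 ± 0.072 and 8.27 ± 0.046 in the same order, a difference of 0.37 (SE 0.060). Both rose without overlap, at limma adjusted p = 0.00824 and 0.00434. CFAP251, part of the complex at the base of the radial spokes, was read at 6.99, 6.97 and 6.76 in S22A-progerin, against 6.55, 6.50 and 6.46 in wt-progerin (0.40, SE 0.075, limma adjusted p = 0.00757). CFAP47, a sperm tail protein, averaged 5.34 ± 0.117 in S22A-progerin and 5.03 ± 0.034 in wt-progerin (0.31, SE 0.071, limma adjusted p = 0.0177). CFAP47 missed the threshold without S22A-progerin replicate 2 (0.055) or wt-progerin replicates 2 (0.0548) or 3 (0.0666).

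The other 31 CFAP genes did not pass, with differences from -0.42 in CFAP73 to 0.32 in CFAP299. Of these, 3 lay apart between the groups with S22A-progerin below, namely CFAP44, CFAP36 and CFAP20, and 2 with it above, CFAP61 and CFAP100. Counting those that passed, the groups did not overlap in 11 of 37 CFAP genes, a smaller share than the 42.1% of all genes. CFAP36 (-0.18, limma adjusted p = 0.0522), a binding partner of the cilium GTPase ARL3, and CFAP100 (0.24, 0.0503), named for a regulator of inner dynein arms in Chlamydomonas, stood just outside the threshold. The partner of CFAP100 in that Chlamydomonas complex, CFAP73 (-0.42, 0.0716), pointed the other way. CFAP44 (-0.32, 0.0823), a tether of inner dynein, had values of 6.75, 6.54 and 7.01 in S22A-progerin and 7.09, 7.08 and 7.07 in wt-progerin, so the spread lay in 1 group. CFAP20 (-0.15, SE 0.065), a protein of the inner junction of doublets with the brightest CFAP probe set, and CFAP97 (-0.08, SE 0.068) did not pass despite high signal. Doublet proteins CFAP45 (0.12), CFAP52 (-0.03) and CFAP53 (0.002) and the radial spoke base proteins CFAP61 (0.19) and CFAP91 (0.02) did not pass. CFAP210 had the dimmest probe set, with 3.95 in S22A-progerin and 3.97 in wt-progerin.

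Brightness of the probe set bears on how often a gene passes. With no detection call, a low signal cannot be told from absence, and small changes at low signal are compressed. Among the dimmest 25% of all genes 9.14% passed, and among the brightest 25% 40.5%. Between these, 17.7% passed in the dimmer 25% and 34.2% in the brighter 25%. Of the 37 CFAP genes 14 lay in the dimmest 25% and 2 in the brightest. Of the 16 IFT genes 1 lay in the dimmest 25% and 2 in the brightest. These ranks compare probe sets and not transcript numbers.

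The other parts of the cilium were described from lists chosen with earlier results of these data known. Their counts stand beside 14.6% of all genes lower, 10.8% higher and 25.4% in either direction, without matching for brightness. Among the brightest 25% of all genes, 992 of 3722 were lower and 514 higher. In that brightest 25% lay 5 of the 7 motor genes, 3 of the 15 transition zone genes and 3 of the 9 appendage and basal body genes. So did 7 of the 9 genes that take cilia down or cap the centriole, and 14 of the 15 mitosis genes. Of 7 measured motor genes of intraflagellar transport, 3 fell and 1 rose (median -0.15). The dynein-2 intermediate chains DYNC2I2 (-0.44, SE 0.060) and DYNC2I1 (-0.43, SE 0.076) and the kinesin-2 gene KIF3C (-0.33) fell. KIF17 (0.30), a kinesin-2 of specialised cilia, rose, though its call was lost without any 1 of 5 arrays (adjusted p up to 0.0776), and that of KIF3C without wt-progerin replicate 2 (0.051). The main kinesin-2 subunits KIF3A (-0.15), KIF3B (0.04) and KIFAP3 (0.06) did not pass. DYNC2H1, the dynein-2 heavy chain, was not analysed here.

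Of 15 transition zone genes, which form the gate at the cilium base, 5 fell and 0 rose (median -0.13), or 33.3% that passed, against 25.4% of all genes. RPGRIP1L (-0.55, SE 0.053), TCTN2 (-0.55, SE 0.074) and TMEM237 (-0.54, SE 0.075) moved most. CC2D2A (-0.24) and TCTN3 (-0.23) fell less. CC2D2A lost its call without any 1 of 4 arrays and TCTN3 without any 1 of 5 (adjusted p up to 0.0962). Of 9 genes of the distal appendages and basal body, 7 fell and 0 rose (median -0.27). SCLT1, a distal appendage protein, averaged 7.31 in S22A-progerin and 8.13 in wt-progerin, a 1.77-fold fall (-0.82, SE 0.058, limma adjusted p = 0.000128). C2CD3 (-0.53), a centriole elongation factor, CEP89 (-0.51) of the appendages and TTBK2 (-0.35), the kinase that starts cilium assembly, fell as well. PCM1 (-0.27) lost its call without wt-progerin replicates 2 or 3 (0.0534 to 0.059), and KIAA0586 (-0.25) and ODF2 (-0.22) each without any 1 of 5 arrays (adjusted p up to 0.0915).

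Genes that take cilia down or cap the centriole also fell. Of 9 measured, 8 fell and 0 rose (median -0.48). KIF24 (-0.98, SE 0.062), a kinesin that blocks cilium assembly with CCP110, NEK2 (-0.91, SE 0.053), a kinase of centrosome separation, HDAC6 (-0.59), a tubulin deacetylase, and NDE1 (-0.54), which restrains cilium length, moved most. CCP110 (-0.46) and CEP97 (-0.36), which cap the mother centriole, fell too. AURKA (-0.34) lost its call without any 1 of 4 arrays (adjusted p up to 0.088). Genes for building the cilium and genes against it thus fell in the same comparison. Several genes of this list act in mitosis, and mitosis genes fell together. Of 15 measured from a list of 20, 15 fell (median -0.74). Their summed linear signal was 21046 to 22401 in S22A-progerin and 34078 to 34987 in wt-progerin.

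**Figure D4:**
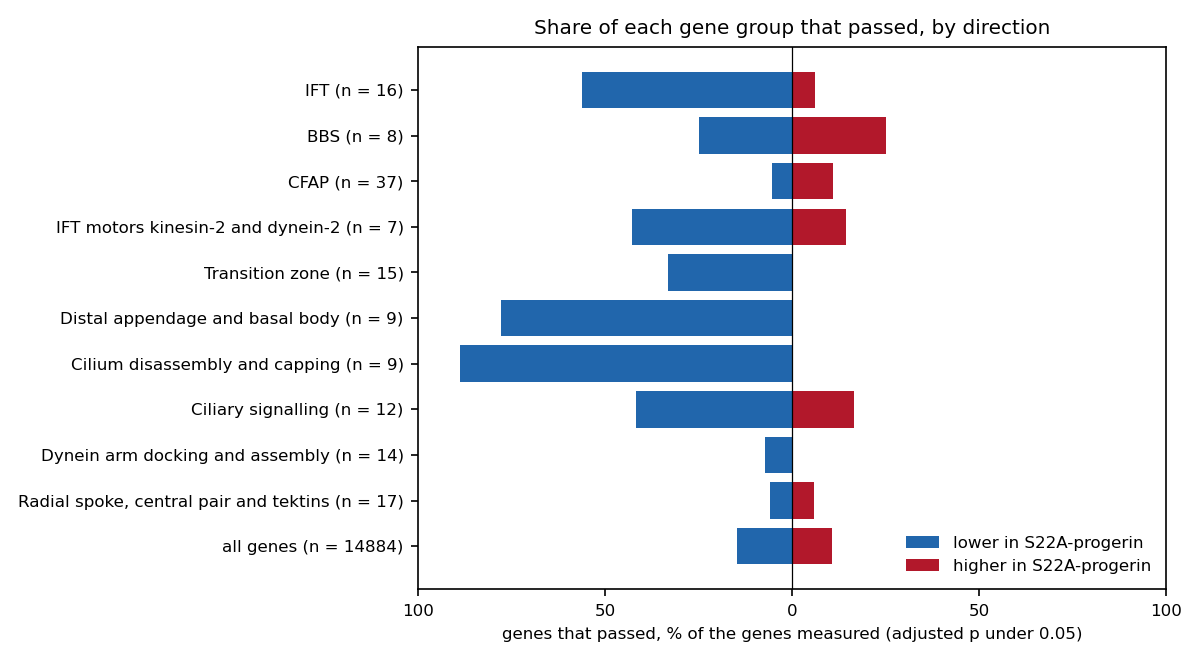
Share of the measured genes of each group that passed (adjusted p under 0.05), drawn to the left for genes lower and to the right for genes higher in S22A-progerin, with the number measured in brackets. IFT, appendage and disassembly genes reach far to the left, while CFAP, dynein assembly and radial spoke genes are near or below the bar of all 14884 genes.

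Hedgehog genes read out at the primary cilium moved in both directions. Of 12 measured ciliary signalling genes, 5 fell and 2 rose (median -0.15). GLI1, a transcription factor and target of the pathway, averaged 6.25 ± 0.179 in S22A-progerin and 7.30 ± 0.044 in wt-progerin (SD, n = 3 each), a 2.07-fold fall (-1.05, SE 0.093, limma adjusted p = 0.000332). PTCH1 (-0.64, SE 0.094), the receptor and also a target, GLI2 (-0.59) and ARL3 (-0.49), a GTPase that releases lipid-bound cargo in cilia, fell. HHIP, another target that binds the ligand, averaged 5.96 ± 0.177 in S22A-progerin and 5.05 ± 0.138 in wt-progerin (SD, n = 3 each) and rose (0.91, SE 0.108, limma adjusted p = 0.00114). The targets therefore did not share a direction. The calls of SUFU (-0.26) and GLI3 (0.19) were each lost without any 1 of 5 arrays (adjusted p up to 0.134). SMO was not analysed here.

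Few genes of the motile axoneme passed. Of 14 genes for docking and assembly of dynein arms, 1 fell and 0 rose (median -0.066), and RUVBL1 (-0.24), the member that fell, lost its call without any 1 of 5 arrays (adjusted p up to 0.0967). Of 17 genes of radial spokes, central pair and tektins, 1 fell, ROPN1L (-0.30), and 1 rose, SPAG17 (0.22), which lost their calls without any 1 of 3 and any 1 of 5 arrays (adjusted p up to 0.0997). Of these 17 genes, 11 lay in the dimmest 25%, as did 3 of the 14 docking and assembly genes. Among the dimmest 25% of all genes 9.14% passed. In the brightest 25%, where 40.5% of all genes passed, lay 4 of the 14 docking and assembly genes and 0 of the 17. The part of signal level in these counts was not tested. Of 3 measured axonemal dynein chains of the intermediate type, DNAI3 rose. It averaged 6.94 ± 0.084 in S22A-progerin and 5.87 ± 0.182 in wt-progerin (SD, n = 3 each), a 2.09-fold difference (1.07, SE 0.099, limma adjusted p = 0.000385). DNAI4 (0.13) and DNAI7 (-0.17) did not pass. Markers of multiciliated cells did not move together. Of 13 measured from a list of 16, GMNC (0.24) rose, TP73 (-0.79) fell and 11 did not pass, among them FOXJ1 (-0.17) and MCIDAS (0.07). GMNC lost its call without any 1 of 4 arrays (adjusted p up to 0.106). The summed linear signal of the list was 1083 to 1207 in S22A-progerin and 1157 to 1243 in wt-progerin, so the groups overlapped. MYB (-0.50), a further transcription factor listed, fell, though not without wt-progerin replicate 3 (0.0597). The multiciliated marker CCNO (0.23), counted among the 11 above, did not pass. The RFX genes were not analysed here.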

How the data were processed

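The deposited table holds log2 signals per probe set, which the authors obtained by RMA (Affymetrix Expression Console), as the submitters' processing notes name it. That method subtracts background, equalises the arrays' distributions and combines probes. The version is not given in the sources used here. Of 53617 probe sets, 16098 had 1 gene symbol in the platform annotation, 0 had several and 37519 were not named here. The 14884 genes were each read by the probe set with the highest mean. Of the 61 members, 2 had several probe sets. Genes were tested with limma 3.58.1 in R 4.3.3 (lmFit, eBayes, 2 groups, no covariate, two-sided), with Benjamini-Hochberg adjustment at 0.05, after a test of the code on simulated arrays. Families and lists were described by counts and medians. Members and lists were chosen with earlier results of these data known. Named were all members that passed, the extremes of each family, members that passed in an alternative, and the leading genes of each list, and some others were chosen after their values were seen. Alternatives covered normalization, dim genes, probe set choice, variance prior, array weights, a replicate block, each array left out and a threshold of 0.01. Same-numbered arrays of the groups had deviations that correlated at -0.0195, -0.0549 and -0.00558, so the numbers were not taken as pairs. No array has a sequencing depth, and their number, 3 per group, limits the precision.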

Additional observations from a re-analysis of the deposited data

How the results depend on the processing

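Leaving aside the stricter threshold of 0.01, 13 of the 20 members that passed did so under every alternative that tested them. Of these 13, IFT20 (limma adjusted p = 0.013), IFT88 (0.0153) and CFAP300 (0.013) did not pass at 0.01. The other 7 members missed the main threshold in at least 1 alternative (IFT70B, IFT81, IFT57, IFT52, BBS9, BBS4 and CFAP47), each with its direction kept. Of the 41 that did not pass, 8 passed in at least 1 alternative, namely IFT74, CFAP73, CFAP44, CFAP36, CFAP126, CFAP20, CFAP100 and CFAP299. In 16 members that did not pass, the sign differed in at least 1 alternative, with 0 of these values passing.

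With 1 array left out, 5 to 8 IFT genes fell and 1 rose, 1 to 2 BBS genes fell and 1 to 2 rose, and 2 to 4 CFAP genes fell and 3 to 5 rose. The BBS median ranged from -0.053 to 0.070. With the replicate block 6 IFT genes fell, and 1 BBS gene fell and 1 rose. With the block 2990 genes passed, against 3777 without it, and the numbers were not taken as a pairing. With array weights 1 BBS gene fell, and with every probe set tested 1 rose. With the dimmest 25% of genes left out, or with a trend and robust prior, 5 CFAP genes fell. With the dimmest 50% left out 1 CFAP gene rose, since fewer CFAP genes were tested. At a threshold of 0.01, 2078 genes passed, 1226 lower and 852 higher. At that threshold 4 IFT genes fell and 0 rose, 1 BBS gene fell and 1 rose, and 1 CFAP gene fell and 3 rose. Where not stated, the cause was not tested. There were 3 arrays per group and no detection call. Fewer dim genes passed, 9.14% of the dimmest 25% against 40.5% of the brightest 25%.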
